A study of Mus musculus with 18 samples.

Results

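The regions described here carried a peak of acetylated histone H3 lysine 27 (H3K27ac) in WT and in mdx macrophages and none in mdxTLR4-/- macrophages. They were selected on the deposited peak lists themselves. The peaks of the 3 genotypes on chromosomes 1 to 19 were merged wherever they overlapped by at least 1 base, and a merged region was kept when a WT and an mdx peak touched it and no mdxTLR4-/- peak did. Of 21525 merged regions, 1340 met this rule. A further 6383 regions had a peak in all 3 genotypes and are called shared regions below. The regions covered 3.50 Mb.

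The cells were bone marrow-derived macrophages (BMDM), grown from the marrow of male mice and left unstimulated. WT cells came from mice labelled C57BL6. The mdx cells came from dystrophin-deficient mice labelled Dmdmdx-4Cv, a model of Duchenne muscular dystrophy. The mdxTLR4-/- cells came from mdx mice that also lacked Toll-like receptor 4 (TLR4) throughout the body, and are labelled Bl6/Bl10. The study's methods give C57BL/6J as the background of its WT, mdx and TLR4-/- mice, which differs from the label Bl6/Bl10. For H3K27ac the labels give 2 WT libraries, 2 mdx libraries, 1 mdxTLR4-/- library and 1 input library without antibody. Each genotype had 1 deposited peak list, made from its libraries together, so no spread between mice could be computed and no p-value is given. The labelled ages were 19 to 20 weeks for WT, 21 to 22 weeks for mdx and 23 weeks for mdxTLR4-/-. The H3K27me3 lists were made from 2 ChIP libraries per genotype, labelled 12 to 13 weeks for WT, 14 to 15 for mdx and 16 to 17 for mdxTLR4-/-. The labelled ages differ by 1 week from each sample to the next over all 18 samples, from 6 to 23 weeks, and whether they are the true ages is not known. Age as labelled, the labelled strain and the number of libraries therefore cannot be told apart from genotype.

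H3K27ac is placed on nucleosomes by the acetyltransferases p300 and CBP and marks active promoters and enhancers. TLR4 is the macrophage receptor for bacterial lipopolysaccharide and for molecules released by damaged tissue. It signals through MyD88 and TRIF to NF-kappaB, AP-1 and interferon regulatory factors. Long-lasting changes in histone marks of marrow progenitors are one form of innate immune memory, also called trained immunity. The 3 lists were compared to ask which marks of dystrophic macrophages depend on TLR4.

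The sequences of a few regions show what was found at them. The first set holds the central 200 bases of 4 of the regions with the most reads, as written on the plus strand of the RefSeq genome GRCm38.p6, which has the same chromosomes as mm10. Capitals mark motifs searched on both strands. These were GAGGAA for PU.1, the ETS factor of the macrophage lineage, TGANTCA for AP-1, TTGCNNAA for C/EBP, GAAA, any 2 bases and GAAA for the interferon-stimulated response element (ISRE), GGG, any 2 bases and TTTCC for NF-kappaB, CACGTG for the E-box and CCGGAA for the ETS site of housekeeping promoters. A match is a stretch of letters and not a measured binding site. The region with the most reads, near the pseudogene Gm3318 with its central bases at chr10:3113201-3113400, was a tandem repeat. The region upstream of Sfpq, which encodes a splicing factor, had its center at chr4:127015201-127015400. The region reaching into Lyz1, a lysozyme gene, had its center outside that gene, at chr10:117286801-117287000, and held a PU.1 and a C/EBP match. The region at the start of Fblim1, a filamin-binding adaptor, had its center at chr4:141606101-141606300 and held an AP-1 and a PU.1 match.
Gm3318 region: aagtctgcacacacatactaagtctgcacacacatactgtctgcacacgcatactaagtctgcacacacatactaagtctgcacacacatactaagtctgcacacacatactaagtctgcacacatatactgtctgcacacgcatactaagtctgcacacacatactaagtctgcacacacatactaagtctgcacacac
Sfpq region: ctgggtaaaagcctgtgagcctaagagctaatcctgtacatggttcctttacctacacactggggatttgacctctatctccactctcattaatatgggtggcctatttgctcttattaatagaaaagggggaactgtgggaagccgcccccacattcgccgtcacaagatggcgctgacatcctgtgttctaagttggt
Lyz1 region: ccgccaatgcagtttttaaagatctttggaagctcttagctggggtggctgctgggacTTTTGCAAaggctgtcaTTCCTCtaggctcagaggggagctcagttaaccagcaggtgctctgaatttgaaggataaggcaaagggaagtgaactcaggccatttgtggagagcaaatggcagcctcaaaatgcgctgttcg
Fblim1 region: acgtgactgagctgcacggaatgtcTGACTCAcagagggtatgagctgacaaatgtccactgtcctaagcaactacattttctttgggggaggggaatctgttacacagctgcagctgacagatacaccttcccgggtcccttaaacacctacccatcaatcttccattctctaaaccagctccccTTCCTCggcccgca

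The next set holds 2 30-base stretches that recurred in many repeat-rich regions and the proximal sequences of 2 inflammatory genes. Stretch A was found in 105 of the 1340 regions and stretch B in 63, on either strand. Stretch A belongs to the coding sequence of the LINE-1 retrotransposon, as general knowledge, since no table of repeat families was used. The 30 bases upstream of Ifit1 lay at chr19:34640785-34640814 on the plus strand and hold 2 ISRE matches. The 250 bases upstream of Tnf lay at chr17:35202008-35202257 and are written on the minus strand, on which Tnf is coded, with 1 PU.1 match on the opposite strand. Of 31396 RefSeq promoters of 250 bases, 2.98% held an ISRE match and 23.4% a PU.1 match.
Stretch A: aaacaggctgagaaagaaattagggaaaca
Stretch B: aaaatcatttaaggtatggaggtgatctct
Ifit1, upstream: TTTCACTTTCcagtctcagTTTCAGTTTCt
Tnf, upstream: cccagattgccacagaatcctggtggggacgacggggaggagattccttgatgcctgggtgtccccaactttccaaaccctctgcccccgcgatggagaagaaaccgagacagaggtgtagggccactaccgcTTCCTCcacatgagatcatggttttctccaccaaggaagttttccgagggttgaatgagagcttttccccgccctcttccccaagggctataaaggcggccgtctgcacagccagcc

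The values that chose the regions were small. The deposited files give unscaled ChIP read counts per peak, with no input subtracted, and list called peaks only, down to 5 reads. The total number of mapped reads is unknown, so counts were compared within a genotype or between groups of regions. Autosomal peaks numbered 14962 with 266063 reads for WT, 11581 with 186508 for mdx and 12204 with 165505 for mdxTLR4-/-. The regions without an mdxTLR4-/- peak had a median of 10 reads in WT (quartiles 8 and 13, range 5 to 173) and 9 in mdx (quartiles 7 and 11, range 5 to 217). The shared regions had medians of 20 WT, 15 mdx and 13 mdxTLR4-/- reads. Per kilobase of peak, the medians were 6.00 reads in WT and 5.56 in mdx, against 9.44 and 8.12 in the shared regions. At least 10 reads in both WT and mdx were present in 348 regions, and at least 20 in 13. Although they made up 9.03% of WT peaks and 11.6% of mdx peaks, they held 5.62% and 7.11% of the reads. They were 2400 bp long at the median, against 3000 bp for the shared regions.

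**Figure D1:**
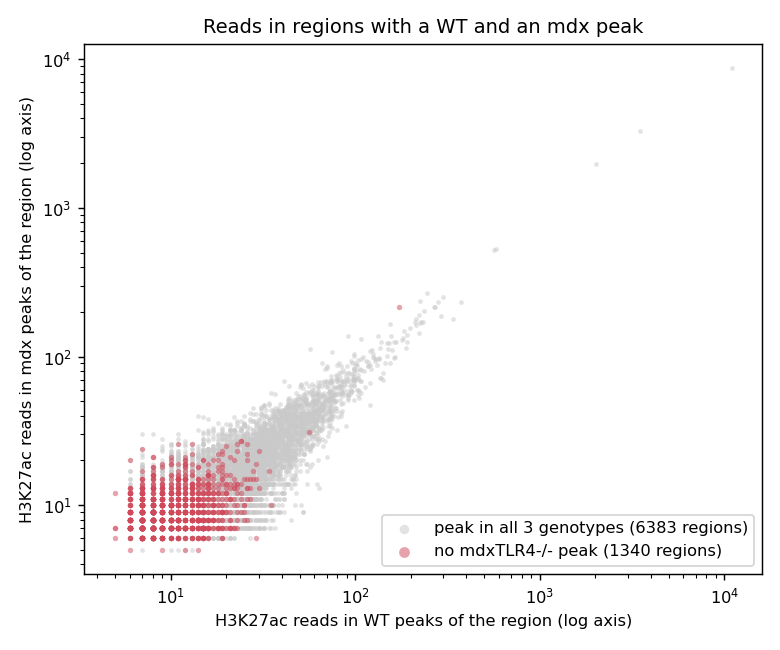
Each point is 1 merged region with a WT and an mdx peak. The x axis gives its H3K27ac reads in WT and the y axis its reads in mdx, both log axes. The 1340 regions without an mdxTLR4-/- peak lie at the low end of the 6383 shared regions, apart from 1 region with 173 WT and 217 mdx reads.

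As background, 1340 of the 7723 regions with a WT and an mdx peak lacked an mdxTLR4-/- peak (17.4%), which is 6.23% of all merged regions. The same count for the other lists was 20.8% of 8056 regions with WT and mdxTLR4-/- peaks that lacked an mdx peak, and 8.53% of 6978 regions with mdx and mdxTLR4-/- peaks that lacked a WT peak. An absent peak was thus no more frequent in mdxTLR4-/- than in mdx. The WT and mdx lists rested on 2 libraries each and the mdxTLR4-/- list on 1, and the part of this in the counts was not tested.

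The share without an mdxTLR4-/- peak fell with the reads of WT and mdx together. With 10 to 15 reads, 268 of 438 regions lacked the peak (61.2%, 95% Wilson interval 56.5 to 65.6). With 16 to 25 reads the share was 34.8% of 2355 regions, and with 26 to 50 reads 7.97% of 3075. With 51 to 100 reads, 6 of 1435 regions lacked it (0.418%), and above 100 reads 1 of 420 (0.238%). Shared regions with 10 to 15 reads had a median of 7 mdxTLR4-/- reads. Intervals cover counting over regions only.

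The regions differed from the shared regions in repeat content. Repeats are the bases that the reference genome writes in lower case. Regions with at least 75% repeat bases numbered 248 of the 1340 (18.5%), against 72 of the 6383 shared regions (1.13%) and 65 of the 1673 regions missing only in mdx (3.89%). In 165 of the 248, every base was a repeat. Regions found in 1 genotype alone were also rich in repeats. More than 50% of the bases were repeats in 21.7% of the 1340 regions, 2.62% of the shared regions, 21.1% of the regions of mdxTLR4-/- alone, 41.8% of those of WT alone and 50.7% of those of mdx alone. Read the other way, 320 repeat-rich regions had a WT and an mdx peak, and 77.5% of them (interval 72.6 to 81.7) lacked an mdxTLR4-/- peak. Among the 7264 regions with under 50% repeat bases the share was 14.4% (interval 13.7 to 15.3).

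The gap was present at equal read counts. With 16 to 25 reads in WT and mdx together, 159 of 176 repeat-rich regions lacked the mdxTLR4-/- peak (90.3%, interval 85.1 to 93.9), against 30.0% of 2128 repeat-poor regions (interval 28.1 to 32.0). With 26 to 50 reads the shares were 30.2% of 53 and 7.40% of 2972. A gap was also found when another peak was the absent one. With 16 to 25 reads in WT and mdxTLR4-/-, 55.6% of 45 repeat-rich regions (interval 41.2 to 69.1) and 34.7% of 2418 repeat-poor regions lacked the mdx peak. With 16 to 25 reads in mdx and mdxTLR4-/-, 32.6% of 46 repeat-rich regions (interval 20.9 to 47.0) and 11.6% of 2313 repeat-poor regions lacked the WT peak.

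**Figure D2:**
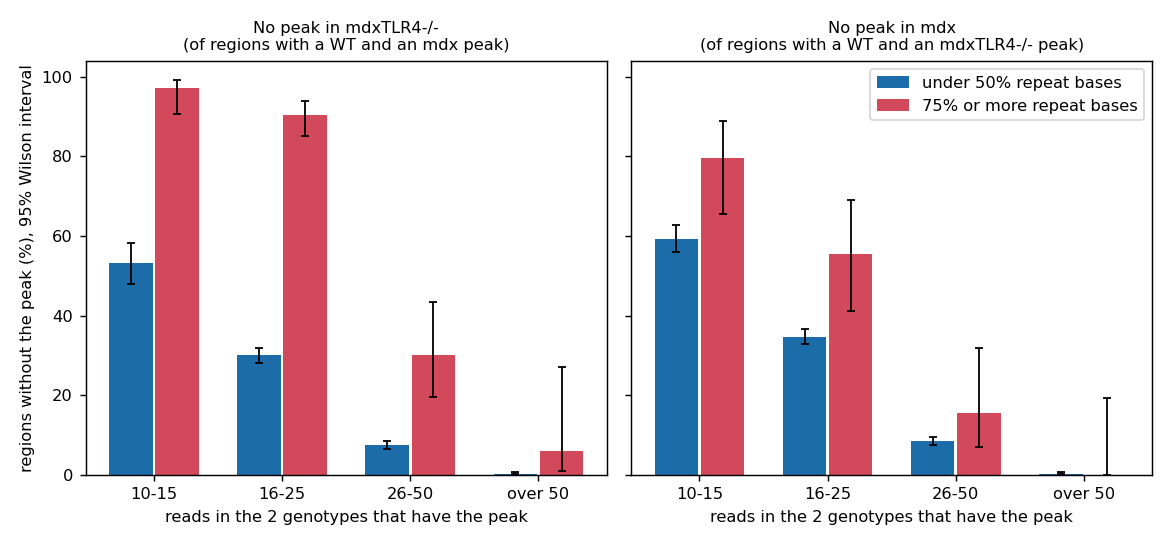
Bars give the share of regions without a peak in mdxTLR4-/- (left) or in mdx (right), by the reads in both other genotypes (x axis) and by repeat content, with 95% Wilson intervals. With 16 to 25 reads, 90.3% of repeat-rich and 30.0% of repeat-poor regions lacked the mdxTLR4-/- peak.

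The same difference stood in the whole lists. Peaks with at least 75% repeat bases were 15.5% of the WT list (2320 peaks), 14.8% of the mdx list (1713) and 5.15% of the mdxTLR4-/- list (629). The H3K27me3 lists, made from other libraries of the same genotypes, did not show this order, with 0.842% in WT, 1.43% in mdx and 1.81% in mdxTLR4-/-. The repeat-rich regions were long and thinly covered, with a median length of 3800 bp and 3.33 reads per kilobase in WT, against 2200 bp and 6.67 in the repeat-poor ones. Reads from near-identical repeat copies fit several places. The authors mapped with Bowtie2 at its default settings, which report 1 of the best placements of such a read. The part of this in the counts was not tested.

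The repeat-rich regions had sequences in common. Of the 248, 245 (98.8%) shared at least one 30-base stretch with another of the 1340 regions, against 574 of the 1049 repeat-poor ones (54.7%). Stretch A, the LINE-1 sequence, occurs 14882 times on the autosomes of the reference. It was in 112 regions with a WT and an mdx peak, of which 105 (93.8%) lacked an mdxTLR4-/- peak and 7 kept one. It was also in 17 regions missing only in mdx, 11 missing only in WT, 591 found in WT alone, 425 found in mdx alone and 78 found in mdxTLR4-/- alone, so regions with it that lacked a peak were not limited to mdxTLR4-/-. Stretch B occurs 1364 times on the autosomes. It was in 77 regions with a WT and an mdx peak, of which 63 (81.8%) lacked the mdxTLR4-/- peak, and in 169 regions of WT alone, 87 of mdx alone and 8 of mdxTLR4-/- alone. The regions with stretch A had a median of 8 reads in WT and 8 in mdx. The third most frequent stretch, not printed, was in 56 of the 1340 regions, none of them repeat-rich. Of 413 regions with it and with a WT and an mdx peak, 13.6% lacked the mdxTLR4-/- peak, below the 17.4% of all.

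The position of the regions followed their repeat content. Of all 1340, 508 lay within 1 kb of an annotated gene start (37.9%, interval 35.4 to 40.5), 161 in a gene body over an exon (12.0%), 297 in an intron only (22.2%) and 374 between genes (27.9%). Shared regions were at gene starts in 59.9% (interval 58.6 to 61.0), and regions missing only in mdx in 44.3% (interval 41.9 to 46.7). The repeat-rich regions were at gene starts in 10 of 248 cases (4.03%) and between genes in 151 (60.9%). Among the 1049 repeat-poor regions, 493 were at gene starts (47.0%, interval 44.0 to 50.02), close to the 46.6% (interval 44.2 to 49.1) of the repeat-poor regions missing only in mdx and below the 61.2% of the repeat-poor shared regions. The share without the peak was lower at gene starts than elsewhere at like read counts. With 16 to 25 reads, 27.6% of gene starts and 41.9% of other regions had no mdxTLR4-/- peak, and with 26 to 50 reads 6.17% and 10.4%, with repeat-rich regions included.

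**Figure D3:**
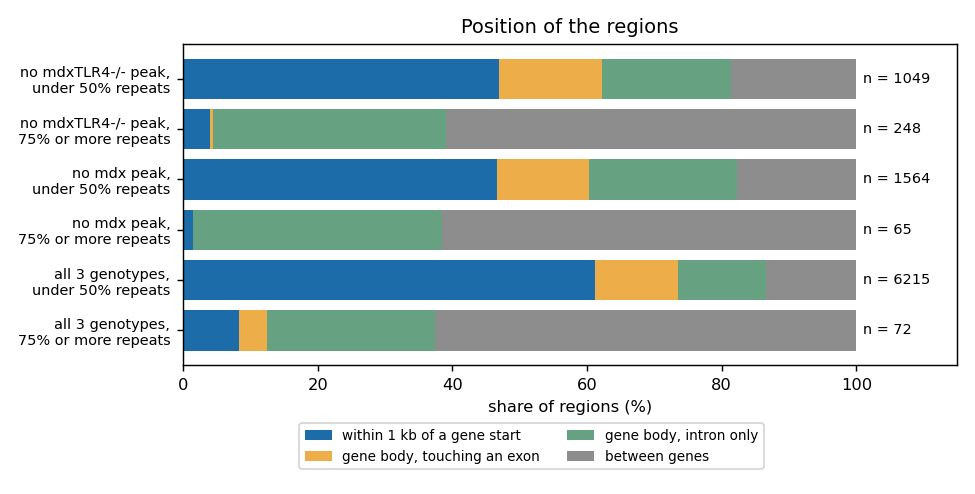
Stacked bars give the share of regions (x axis, percent) at gene starts, over exons, in introns and between genes, for regions without an mdxTLR4-/- peak, without an mdx peak, or with all 3 peaks, split by repeat content. Repeat-poor regions were at gene starts in 47.0% without an mdxTLR4-/- peak, 46.6% without an mdx peak and 61.2% with all 3.

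An mdxTLR4-/- peak often lay close by. It was at most 10 kb away for 384 of the 1340 regions (28.7%) and at most 50 kb away for 878 (65.5%), with a median distance of 26400 bp. The mdx peak was at most 10 kb from 28.5% of the regions missing only in mdx and at most 50 kb from 68.4%. Within 10 kb, the share was 32.7% for repeat-poor and 11.7% for repeat-rich regions. At the edge of the rule, 36 regions had an mdxTLR4-/- peak under 1 kb away, at a median of 500 bp and with a median of 17 WT and mdx reads. Just inside the other side, 32 shared regions were overlapped by their mdxTLR4-/- peak over at most 200 bp and had a median of 23.5 reads.

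Chromosome 4 carries Tlr4, the deleted gene. On chromosome 4, 102 of 488 regions lacked the mdxTLR4-/- peak (20.9%, interval 17.5 to 24.7), against 17.1% on the other autosomes (interval 16.3 to 18.0). This was the highest share of any autosome, and the lowest was 13.8% on chromosome 11. Among repeat-poor regions the chromosome 4 share was 18.5% (interval 15.3 to 22.3), again the highest of the autosomes, and the next was 16.3% on chromosome 13 (interval 12.8 to 20.4). Within 10 Mb of Tlr4, 7 of 29 regions lacked the peak (24.1%, interval 12.2 to 42.1). When the chromosome was cut into windows of 20 Mb, the highest share was 27 of 102 between 140 and 160 Mb (26.5%, interval 18.9 to 35.8). The lowest was 12.5% between 80 and 100 Mb (interval 5.46 to 26.1). The 140 to 160 Mb window is named for its value, and it does not hold Tlr4. These intervals overlap.

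The start of Tlr4 itself (chr4:66827584-66930284) kept its H3K27ac peak in all 3 genotypes. It was counted at 44 reads for WT, 29 for mdx and 28 for mdxTLR4-/-, so it does not show the deletion. A region upstream of the gene, at chr4:66776001-66779200, belonged to the regions without an mdxTLR4-/- peak, with 7 reads in WT and 11 in mdx. The mdxTLR4-/- list had 3 further peaks inside the gene, with 5 reads each. Macrophage markers carried the mark, with peaks at the starts of 10 of 10 macrophage markers in WT and in mdxTLR4-/- and at 9 of 10 in mdx, where Csf1r had none. Of 28 markers of T cells, B cells, neutrophils, fibroblasts and muscle, 1 (Cd4) had a peak, in WT.

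The 20 regions ranked by the lower of their WT and mdx counts show which loci stood furthest above the limit of detection. Of these, 6 lay on chromosome 4, 12 at an annotated gene start, and 10 had an mdxTLR4-/- peak at most 10 kb away. Over all 1340 regions, the same counts were 102, 508 (37.9%) and 384 (28.7%). The Gm3318 region (chr10:3109401-3117200), the tandem repeat printed above, led with 173 reads in WT and 217 in mdx. It was mostly repeat bases and lay 131800 bp from the nearest mdxTLR4-/- peak. The second (chr4:134158601-134165200) lay in the body of Cep85, a centrosomal gene, and touched an exon. It had 56 reads in WT and 31 in mdx, and 48.0% of its bases were repeats. The region upstream of Sfpq (chr4:127014201-127016200) had 26 reads in each, while the Sfpq start itself kept a peak of 22, 9 and 14 reads in WT, mdx and mdxTLR4-/-.

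At Lyz1, a lysozyme gene beside its close copy Lyz2, the region (chr10:117284601-117291000) had 24 reads in WT and 27 in mdx. An mdxTLR4-/- peak of 85 reads over Lyz2 ended 1800 bp away. Lyz1 and Lyz2 are near-identical, so reads of one may have been placed at the other. The Lyz2 start, a macrophage marker, thus kept the mark in all 3 genotypes. The absent part lay upstream of Lyz2 and reached into the body of Lyz1 (chr10:117287797-117292868, minus strand) but not to the Lyz1 start. No genotype had an H3K27ac peak at the Lyz1 start.

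Several ranked regions lay over gene starts with signaling or housekeeping roles. Fblim1 (chr4:141604201-141607000) had 23 reads in WT and 26 in mdx, with the nearest mdxTLR4-/- peak 43800 bp away. Gadd45b, a stress-induced regulator of MAP kinase signaling (chr10:80927801-80931400), had 19 and 18 reads and no mdxTLR4-/- peak within 128600 bp. Calm2, one of the calmodulin genes (chr17:87444801-87448400), had 19 and 22 reads. Rack1, which encodes a scaffold on the small ribosomal subunit, had 19 and 19 reads over its start (chr11:48798801-48802400), where 3 small nucleolar RNA genes also begin. Parp12, an interferon-induced ADP-ribosyltransferase, had 18 and 20 reads at chr6:39117201-39121000, with no mdxTLR4-/- peak within 84200 bp.

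Other ranked regions lay inside or upstream of genes. An intron of Prkag2, a regulatory subunit of AMP-activated kinase, had 30 reads in WT and 23 in mdx (chr5:25081001-25085000). Upstream of Gnai2, an inhibitory G protein subunit, 26 and 22 reads were counted and an mdxTLR4-/- peak of 13 reads lay 2600 bp away. Upstream of Mgat1, which acts in N-glycan synthesis, there were 18 and 22 reads and an mdxTLR4-/- peak of 5 reads 5200 bp away. A region within Il16, a cytokine gene, also held the start of the antisense RNA 2310044K18Rik, with 24 and 27 reads and an mdxTLR4-/- peak of 9 reads 2600 bp away. The antisense partner cannot be told apart from Il16 in ChIP reads.

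The regions were next counted at the starts of protein-coding genes, taken from 5 kb upstream to 1 kb downstream. Of 4882 genes with a WT and an mdx region there, 583 had one without an mdxTLR4-/- peak (11.9%), and 517 had no mdxTLR4-/- peak at all in that window (10.6%). Counts for gene lists are read against 11.9%. Among genes whose best region held at most 34 WT and mdx reads, the background was 525 of 2428 (21.6%).

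**Figure D4:**
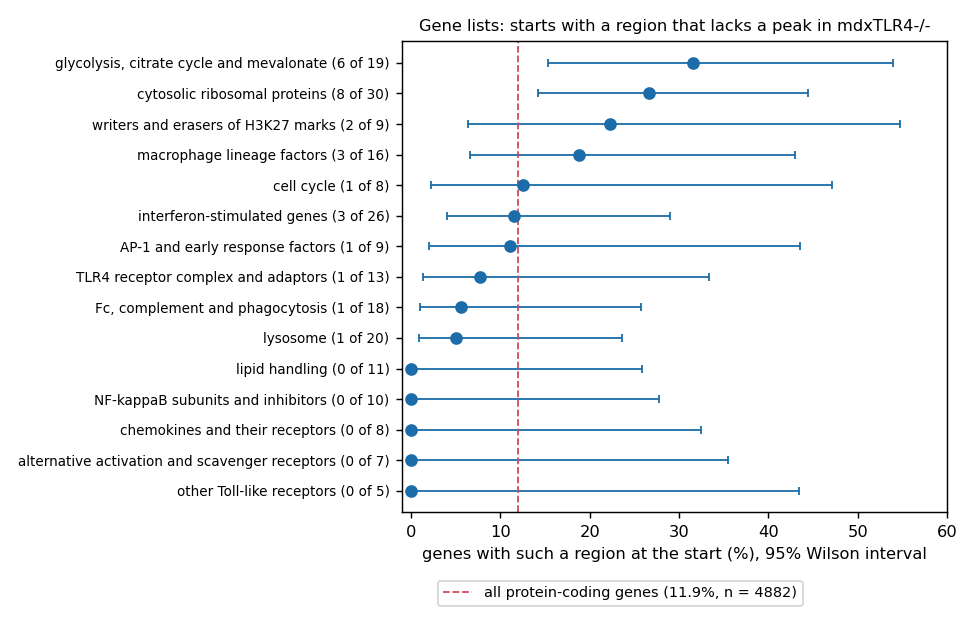
Points give the share of each list's genes (x axis, percent, with 95% Wilson intervals) that had a region without an mdxTLR4-/- peak at the start, for lists with at least 5 genes with a WT and an mdx region there. The dashed line is the 11.9% of all protein-coding genes. The intervals of 2 lists, metabolism and ribosomal proteins, lie above the line.

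Genes of the TLR4 pathway had counts near the background. Of 13 genes of the receptor complex and its adaptors with a WT and an mdx region, 1 lacked the mdxTLR4-/- peak, Irak3, which encodes IRAK-M, an inhibitor of Toll-like receptor signaling. Irak3 had 12 reads in WT and 14 in mdx at chr10:120200201-120204600, with an mdxTLR4-/- peak of 26 reads 3000 bp away. The 13 genes had a median of 50 WT and mdx reads in their best region, against 35 over all genes, and among the 5 with at most 34 reads the share was 20.0%, against 21.6%. None of 5 other Toll-like receptor genes, 10 NF-kappaB subunits and inhibitors, or 8 chemokine and chemokine receptor genes had such a region. Among AP-1 and early response factors it was 1 of 9, Egr2, with 7 reads in WT and 9 in mdx at the border of an H3K27me3 peak of 252, 345 and 253 reads in WT, mdx and mdxTLR4-/-. The WT peak of this region lay inside the gene, past the 1 kb downstream limit, and WT had no peak at the Egr2 start. The counts of these lists were at or below the background of 11.9%, with few genes in each list.

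Of 4 cytokine genes with a WT and an mdx region, Tnf was the 1 without the mdxTLR4-/- peak. Its region (chr17:35200201-35202400), whose upstream sequence is printed above, had 12 reads in WT and 9 in mdx. Upstream of the start of Lta, the adjoining gene, H3K27ac peaks of 29, 12 and 18 reads were kept in WT, mdx and mdxTLR4-/-. None lay over the Lta start itself. The Tnf region touched no H3K27me3 peak in any genotype. Upstream of it, over Lta, an H3K27me3 peak had 60 reads in WT and 85 in mdx, and none was listed in mdxTLR4-/-. Tnf encodes tumor necrosis factor, which TLR4 signaling induces.

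Of 26 interferon-stimulated genes with a WT and an mdx region, 3 had one without an mdxTLR4-/- peak (11.5%), close to the background. Ifit1, which binds foreign RNA caps, had 16 reads in WT and 16 in mdx (chr19:34640201-34641600), over the ISRE matches printed above, and its nearest mdxTLR4-/- peak was 31600 bp away. Its neighbor Ifit3 kept 67, 40 and 35 reads in WT, mdx and mdxTLR4-/-. Ddx58, the RNA sensor RIG-I, had 6 and 13 reads. Irf1, an interferon regulatory factor, had 21 and 11 reads in a region over its start, and kept a peak upstream of it with 35 mdxTLR4-/- reads.

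Macrophage lineage factors had a region without the mdxTLR4-/- peak in 3 of 16 cases (18.8%, interval 6.59 to 43.0). Klf4, linked to alternative activation, had 8 reads in WT and 11 in mdx, and the nearest mdxTLR4-/- peak was 111800 bp away. Klf2, a restraint on inflammatory genes, had 7 and 11 reads. Etv3 had 8 and 18 reads and kept another peak of 8 mdxTLR4-/- reads in its window. In WT all 3 had at most 8 reads. None of 7 alternative activation and scavenger receptor genes or 11 lipid-handling genes had such a region. It was 1 of 18 for Fc, complement and phagocytosis genes (Rac2, a subunit of the NADPH oxidase complex, 10 and 8 reads) and 1 of 20 for lysosome genes (Npc2, a cholesterol carrier, 9 and 13 reads).

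Metabolic genes had the highest share of the lists with at least 5 genes. Of 19 genes of glycolysis, the citrate cycle and the mevalonate pathway, 6 had a region without an mdxTLR4-/- peak (31.6%, interval 15.4 to 54.0), and none of the 6 had another mdxTLR4-/- peak in its window. Sdhb, the iron-sulfur subunit of succinate dehydrogenase, had 23 reads in WT and 23 in mdx (chr4:140960201-140966200). In WT these reads came from 2 peaks, and the one at the Sdhb start had 10. Pgam1, phosphoglycerate mutase, had 18 and 14 reads (chr19:41911001-41914800). Pfkl, a phosphofructokinase of glycolysis, had 15 and 14 reads (chr10:78008001-78010400). Ldha had 10 and 9 reads, in a region upstream of its start that did not reach it. Cs, the citrate synthase gene, had 7 and 11, and Mdh2, a malate dehydrogenase, 7 and 6. The median of the best region over the 19 genes was 38 reads, against 35 over all 4882.

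Cytosolic ribosomal protein genes came next, with 8 of 30 (26.7%, interval 14.2 to 44.4). Rpl3 had 13 reads in WT and 22 in mdx, in a region upstream of its start that lay over an exon of another gene. Rps18 had 14 and 15. Rpl8 had 11 and 12, Rpl5 9 and 11, Rps15 11 and 6, and Rpl13 14 and 6. The list had few reads as a whole, with a median of 28.5, and among its 20 genes with at most 34 reads 7 had such a region (35.0%), against 21.6% of all genes. Ribosomal protein genes have many processed copies in the genome, which can share reads with them.

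Of 9 writers and erasers of H3K27 marks, 2 had a region without the mdxTLR4-/- peak. These were Suz12, a subunit of the Polycomb complex that methylates H3K27, with 13 and 9 reads, and Hdac1, a histone deacetylase, with 6 and 9. Mmp14, a membrane-bound matrix protease, had 8 and 7 reads in a region touched by H3K27me3 peaks of all 3 genotypes, and was 1 of 4 matrix protease and inhibitor genes. Cdk4, a cyclin-dependent kinase, had 7 and 9 reads and was 1 of 8 cell cycle genes. Of the study's own gene lists, which are not independent of its aims, 28 of 295 pro-inflammatory genes (9.49%), 35 of 260 anti-inflammatory genes (13.5%) and 0 of 9 pro-fibrotic genes had such a region, near the background of 11.9%. The pro-inflammatory genes included Gadd45b, Ifit1, Irak3, Parp12, Tnf and Lgals9, the galectin-9 gene, which had 16 reads in WT and 17 in mdx.

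**Figure D5:**
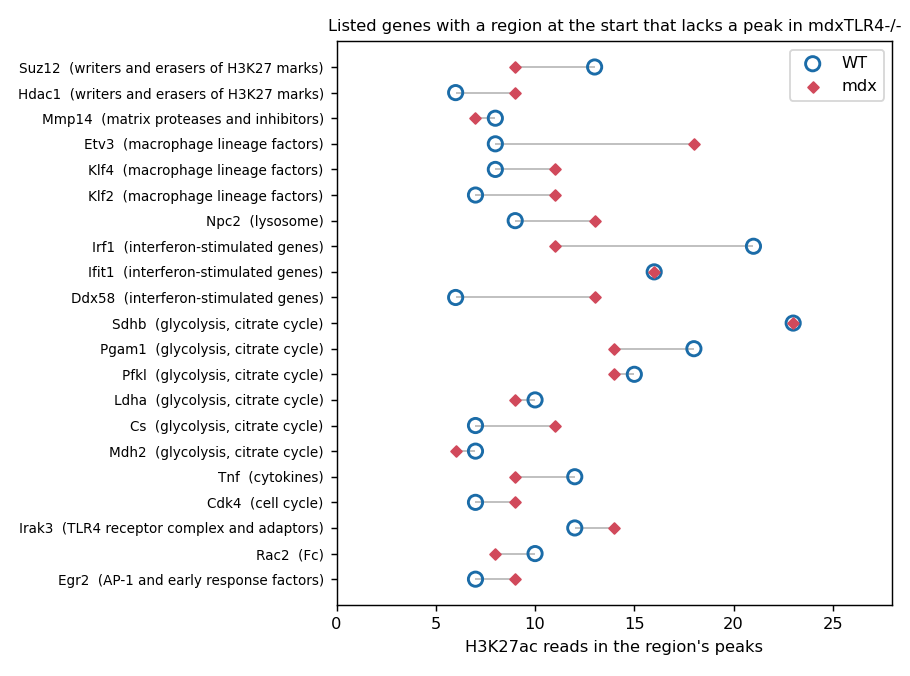
Each line is a listed gene with a region at the start that lacked an mdxTLR4-/- peak, with ribosomal protein genes left out. The x axis gives the region's H3K27ac reads, open circles for WT and diamonds for mdx. The Sdhb region had 23 reads in both, with 10 of the WT reads in the peak at the start. Most of the 21 genes had under 15 reads in each genotype.

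H3K27me3, the repressive mark on the same residue, was measured in libraries that the rule did not use. An mdxTLR4-/- H3K27me3 peak touched 27 of the 1340 regions (2.01%, interval 1.39 to 2.92), against 1.14% of the shared regions (interval 0.911 to 1.44). It touched 1.73% of the regions missing only in mdx (interval 1.21 to 2.48) and 3.51% of those found in WT alone. A WT peak touched 30 (2.24%) and an mdx peak 15 (1.12%), against 1.74% and 1.41% of the shared regions. Only 8 regions (0.597%, interval 0.303 to 1.17) had H3K27me3 in mdxTLR4-/- and in neither other genotype, against 12 shared regions (0.188%, interval 0.108 to 0.328). The share was 0.359% for regions missing only in mdx and 0.504% for those missing only in WT. It was 0.619% for regions of WT alone, 0.725% for mdx alone and 0.442% for mdxTLR4-/- alone, so it was not particular to the 1340 regions. H3K27me3 peaks in mdxTLR4-/- thus stood at few of the regions. H3K27me3 in WT or mdx and none in mdxTLR4-/- was found at 14 regions (1.045%, interval 0.623 to 1.75). This was near the share of the shared regions, 85 of 6383 (1.33%, interval 1.08 to 1.64).

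Base composition and motifs were compared with the shared regions. In windows of 600 bases about the region centers, gene starts without an mdxTLR4-/- peak had a median of 54.4% GC and a CpG observed-to-expected ratio of 0.568, against 55.5% and 0.654 at shared gene starts. Away from gene starts GC was 45.2% against 47.3%. The PU.1 motif was in 51.1% of the regions, 51.6% of the shared regions and 49.8% of all merged regions. AP-1 was in 19.3%, 17.2% and 17.9% of these groups, and C/EBP in 24.8%, 21.5% and 24.1%. The ISRE was in 10.5% (interval 8.99 to 12.3), 9.45% (interval 8.75 to 10.2) and 9.95%. The NF-kappaB motif was the rarest, in 28 of 1340 regions (2.09%) against 3.81% of the shared regions and 2.82% of all. Away from gene starts it was in 2.04% (interval 1.28 to 3.25) against 4.25% (interval 3.54 to 5.11) of the shared regions, 3.54% (interval 2.53 to 4.93) of the regions missing only in mdx and 2.23% of the regions found in WT alone. The E-box was in 10.3% against 10.9%, and the ETS site in 17.9% against 23.0%, a gap that was not present among gene starts alone, where it was 34.4% against 31.5%.

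Few genes had several of the regions. The nearest protein-coding starts belonged to 1228 genes, of which 1135 were nearest to a single region. Obox2, of an oocyte homeobox cluster, and the predicted genes Gm21119 and Gm31371 were nearest to 5 each, and B4galt5, a galactosyltransferase gene, to 4.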

How the data were processed

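Native ChIP-seq of H3K27ac and H3K27me3 in unstimulated BMDM gave 18 libraries. Per the labels and the study's methods, the authors trimmed reads, mapped them to mm10 with Bowtie2 at default parameters (stated for H3K27me3, with the same general procedure for H3K27ac), combined the replicates of a genotype and called peaks with SICER2 (window 200 bp, gap 600 bp, FDR 0.01); the submitters' processing notes name CASAVA 1.8, cutadapt 1.15, Bowtie2 2.3.4 and SICER 2.0. The default reports 1 alignment per read, also for reads that fit several places; any filter of such reads after mapping is not given in the sources used here. The deposited values are read counts per peak, 1 list per mark and genotype, neither scaled nor corrected for input, so sequencing depth is unknown and intervals cover counting error only. 

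Python 3.11.15 with pandas 2.3.3, numpy 2.4.6, scipy 1.17.1 and pysam 0.24.0 merged the H3K27ac peaks of chromosomes 1 to 19 that shared at least 1 base and assigned them to GENCODE genes (GRCm38). A gene start region lay within 1 kb of a start. Repeats are the lower-case bases of the RefSeq GRCm38.p6 FASTA. The merging was tested on 3000 simulated regions, all recovered. Shares carry 95% Wilson intervals, and no test was run, as each genotype had 1 list. The regions, gene lists and motifs were chosen with earlier results of these data known, and the classes of repeat content and the recurring stretches were chosen after their values were seen. The genes named are the nearest to the 20 regions with the largest lower count of WT and mdx, of which those with a known role are described, every listed gene with a region at its start, apart from 2 that are not reported here, and Tlr4; Ifit3, Lta, Lgals9 and the genes nearest to several regions were added after their values were seen. Settings tried instead were other merging distances, overlap, density, list length and read limits, chromosome X, other gene definitions and repeat-poor regions alone. The unused input libraries have no files of their own here.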

Additional observations from a re-analysis of the deposited data

How the results depend on the processing

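No paired analysis was possible because each genotype has 1 list made from its libraries together and the mdxTLR4-/- H3K27ac list rests on 1 library; leaving out a replicate was not possible for the same reason. Of 52 values recomputed, 30 stayed within the limit set for them (a 95% interval for shares and medians, 1.5 times for the number of regions) and 22 did not; the H3K27me3 share did not move beyond its interval in any setting. When a genotype counted as having a peak only if its peaks covered at least 50% of the region, 2038 regions met the rule. In this setting an mdxTLR4-/- peak that covered less of the region counted as missing, so the number rose. The share without such coverage in mdxTLR4-/- was 36.15%, and 48.43% of the regions were at gene starts. An mdxTLR4-/- peak lay within 10 kb of 66.83%, which includes peaks that touch the regions themselves. The medians were 14 WT and 11 mdx reads. Requiring at least 10 reads in WT and in mdx gave 348 regions, 6.848% of those with both peaks, 47.13% at gene starts, 31.61% with a peak within 10 kb, and medians of 13 and 12 reads. Lists cut to equal length gave 14.85% without the peak, 44.97% at gene starts and a WT median of 11 reads. A higher limit on read density gave 45.53% at gene starts and a WT median of 11. Gene starts were 31.19% with protein-coding genes only and 43.13% within 2.5 kb. With regions under 50% repeats only, a setting added after the data were seen, 14.44% lacked the peak, 47.0% were at gene starts and 32.7% had a peak within 10 kb. The number of regions ranged from 1043 to 1384 in the other settings. With medians of 10 and 9 reads, most of the regions stood near the lowest counts that the lists hold, and a peak that is not listed does not show that the mark was absent.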
